A study of Homo sapiens with 8 samples.

Results

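The genes described here are 71 nuclear genes for subunits of the mitochondrial respiratory chain and of ATP synthase. They were picked by a rule on gene symbols from the 61228 gene names in the count tables. The choice took each NDUFA, NDUFB, NDUFC, NDUFS or NDUFV name that ends in digits (37 genes), SDHA to SDHD (4 genes), 8 UQCR genes, 10 COX genes and 12 ATP5 genes. All 71 passed the filter on low counts and were among the 21307 genes tested.

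RNA was sequenced from H1975 and HCC44, established human lung cancer cell lines whose genotype is labelled wild type. Cells received the solvent DMSO or ACBI1 for 96 hours, which made 4 groups of 2 libraries each. ACBI1 is a degrader: it brings the VHL ubiquitin ligase to the chromatin remodelling ATPases SMARCA2 and SMARCA4, and to PBRM1, all parts of SWI/SNF complexes. The labelled dose is 1 mM, and since degraders are commonly used at far lower doses the unit may be wrong. One library, HCC44 ACBI1 replicate 2, has an abbreviated compound name in its title but the full name among its characteristics. The labels do not say whether replicates came from separate cultures, so p-values measure only the spread between these libraries, which may be technical.

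The respiratory chain lies in the inner mitochondrial membrane. Complex I oxidises NADH and complex II oxidises succinate, and both pass electrons through coenzyme Q to complex III, then through cytochrome c to complex IV, which reduces oxygen. Complexes I, III and IV pump protons, and ATP synthase uses the resulting gradient to make ATP. Most subunits are encoded in the nucleus and imported, and a small set of core subunits is encoded in mitochondrial DNA.

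Counts assigned to genes ranged from 62467286 to 70455517 per library. The 71 genes took 0.653 to 0.668% of these counts in H1975 DMSO and 0.770 to 0.778% in H1975 ACBI1. In HCC44 they took 0.553 to 0.555% with DMSO and 0.503 to 0.526% with ACBI1. Epithelial markers were present in both lines, at a summed 5140 to 5390 CPM (counts scaled to a common library size) in H1975 DMSO and 940 to 980 in HCC44 DMSO. With ACBI1 their sum was 2330 to 2810 CPM in H1975, where 4 of 6 fell, and 1200 to 1660 in HCC44, where 2 rose and 1 fell. Of all genes tested, 16.7% fell in H1975, and 17.5% rose and 17.4% fell in HCC44. The HCC44 sum followed KRT7 (423 and 459 CPM with DMSO, 750 and 1120 with ACBI1), while KRT8 fell there from 228 and 205 to 146 and 157 CPM. The lung lineage factor NKX2-1 was at 24.3 to 27.5 CPM in H1975 DMSO and at most 0.0318 CPM in every HCC44 library. Other lung lineage markers were low in H1975 DMSO: NAPSA at 1.96 and 1.91 CPM, SFTPB at 0.0776 and 0.266, and SFTPC without counts. The endothelial markers PECAM1 and CDH5 summed to 0.419 to 0.547 CPM in H1975 DMSO and 0.226 to 0.311 with ACBI1. In HCC44 these sums were 1.99 to 2.48 and 0.144 to 0.252 CPM. Leukocyte markers summed to at most 0.254 CPM in any library, and the T cell marker CD3E and the fibroblast marker DCN had no counts. Fibroblast markers, mainly COL1A1, summed to 45 to 69.5 CPM in H1975 DMSO and 24.9 to 30.2 with ACBI1, against 73.3 to 91.7 and 203 to 406 in HCC44. PDGFRB, another fibroblast marker, rose in H1975, from 0.699 and 0.577 to 1.34 and 1.98 CPM, and the H1975 fall of COL1A1 was not called when any 1 H1975 library was left out. The part of these shifts in the results below was not tested. In such bulk RNA, fewer cells of a type and less RNA per cell cannot be told apart.

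Promoters of respiratory chain genes are known for sites of the transcription factors NRF1, GABP (an ETS factor) and YY1. RefSeq (GRCh38.p14) gave 69 windows of 300 bases around the transcription start for 59 of the 71 genes. The NRF1 letters, GCGC then any base then TGCGC, stood on either strand in 21.7% of these windows and in 5.78% of all 35116 windows. The letters CCGGAAG (ETS) stood in 30.4% against 10.3%, and AAGATGG (YY1) in 27.5% against 5.84%. Matches of different motifs overlapped in 0 of the 69 windows. The following stretches are 30 bases long, are written 5′ to 3′ on the strand of the gene and show the match in capitals. They were picked because these genes carry the results that follow. The first 3 hold the NRF1 letters, the next 3 the ETS letters and the last 2 the YY1 letters. In UQCR10, COX4I1 and UQCRC2 the letters stand on the other strand, so the capitals show their reverse complement. In NDUFA8 they stand on both strands, and a further NRF1 match on the other strand overlaps the capitals and runs on into the lower case letters.
UQCR10: gtcggccccaGCGCAGGCGCggtggcgcga
NDUFA8: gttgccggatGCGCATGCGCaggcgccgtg
NDUFA11: ccggtccccgGCGCGTGCGCgcgatccatg
UQCRQ: aatggtatctcCCGGAAGttacctcacgac
COX4I1: ggccttgctctCTTCCGGtcgcgggacacc
SDHB: cacccgggaaaCCGGAAGccgcctcccact
UQCRC2: ggcctccgccaCCATCTTgctttcctttaa
NDUFS7: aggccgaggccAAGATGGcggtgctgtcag

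In GRCh38.p14 these stretches are UQCR10 chr22:29767351-29767380 on the plus strand, NDUFA8 chr9:122159764-122159793 on the minus strand and NDUFA11 chr19:5903869-5903898 on the minus strand. The others are UQCRQ chr5:132866577-132866606 (plus), COX4I1 chr16:85799686-85799715 (plus), SDHB chr1:17054142-17054171 (minus), UQCRC2 chr16:21953358-21953387 (plus) and NDUFS7 chr19:1383913-1383942 (plus). Of the genes that fell in HCC44 and have a window, 5 of 19 hold the NRF1 letters, 6 the ETS letters and 6 the YY1 letters. Of the 40 others with a window, 10, 14 and 12 hold them. A match is a description of these letters and no measure of binding.

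With ACBI1 against DMSO, calls among these genes were mostly falls in HCC44 and went both ways in H1975. In HCC44, 23 of the 71 genes fell and 1, NDUFB10, rose. In H1975, 6 rose and 5 fell. Here a gene rose or fell when its Benjamini-Hochberg adjusted p, over all genes tested, was under 0.05 in edgeR's quasi-likelihood test. Among all 21307 genes tested, 34.9% were called in HCC44 (17.5% higher, 17.4% lower) and 31.3% in H1975 (14.6% higher, 16.7% lower). The 71 genes were thus called at 33.8% in HCC44, near the background, with 32.4% lower and 1.41% higher. In H1975 they were called at 15.5%, below the background.

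The median log2 fold change of the 71 genes was -0.20 in HCC44, where that of all genes was 0.01, and 60 of the 71 estimates were below 0. In H1975 the median was -0.02 against -0.01 for all genes, and 38 of 71 estimates were below 0. Changes were small: the quartiles of the log2 fold changes were -0.31 and -0.06 in HCC44 and -0.15 and 0.16 in H1975. In HCC44 both ACBI1 libraries lay below both DMSO libraries for 50 genes (70.4%, against 32.7% of all genes) and above them for 1 gene (1.41%, against 34.1%). In H1975 both lay below for 25 genes and above for 25 (35.2% each, against 34.2% and 33.1% of all genes). Relative to the mean of HCC44 DMSO, the median gene was at -0.15 (log2) in ACBI1 replicate 1 and -0.25 in replicate 2.

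**Figure D1:**
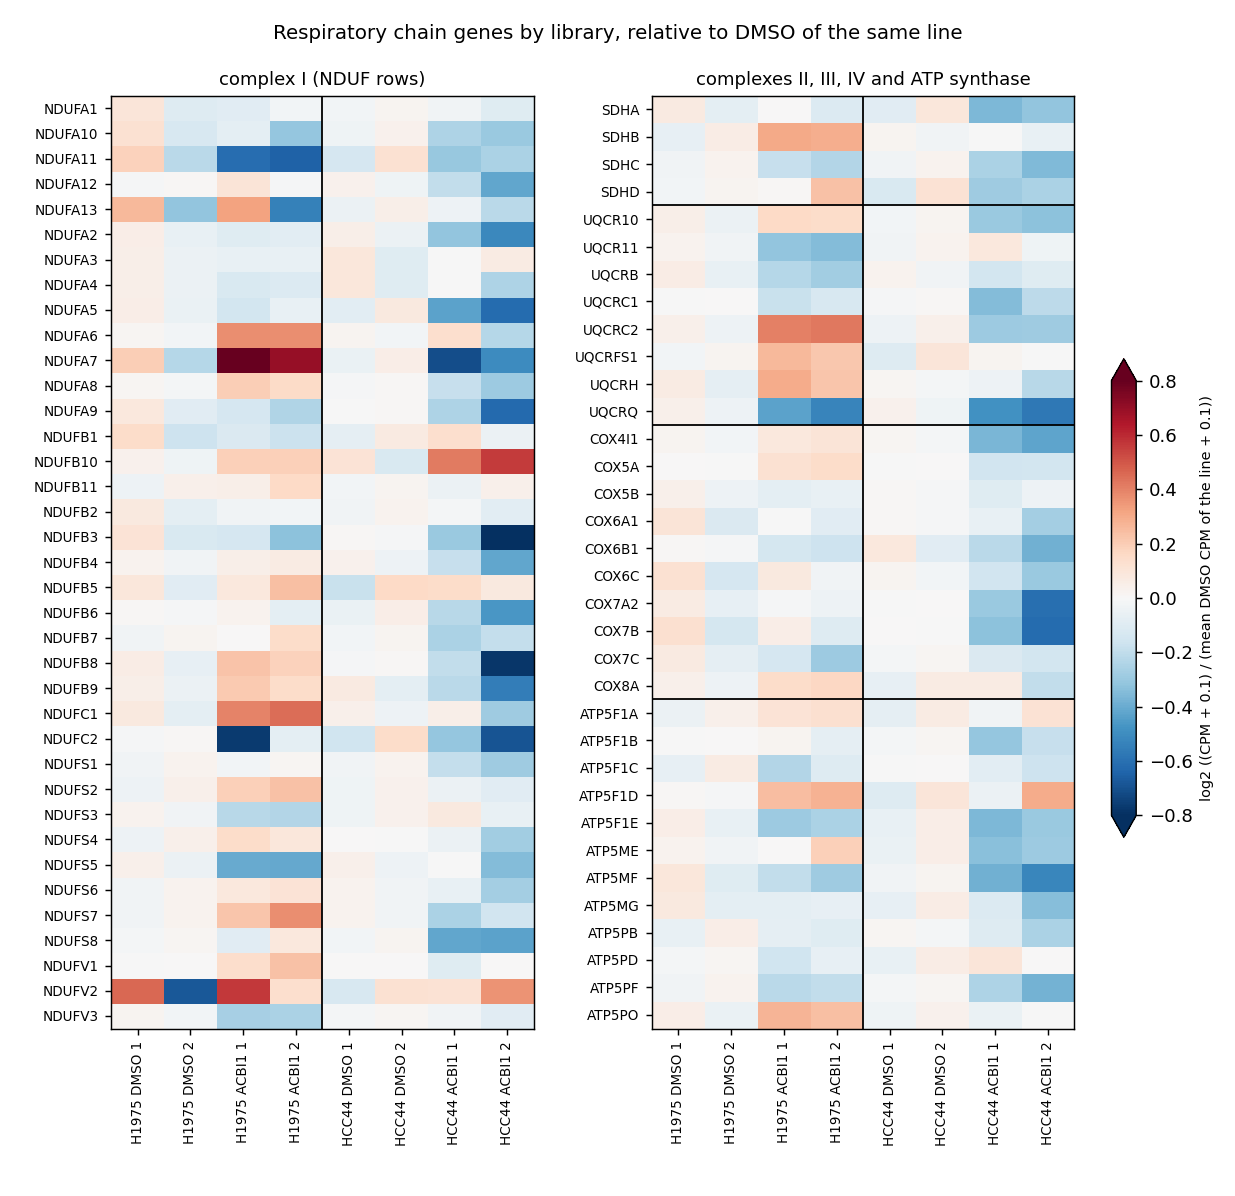
Each cell is the log2 ratio of a gene's CPM in 1 library (columns, 8 libraries) to the mean DMSO CPM of the same line, with 0.1 CPM added to both. The HCC44 ACBI1 columns are blue in most rows, while the H1975 ACBI1 columns hold both colours in every complex.

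Of the 71 genes, 20 fell in HCC44 and did not pass the test in H1975, and 39 passed in neither line. UQCRQ and ATP5F1E fell in both lines, and UQCRC2 rose in H1975 and fell in HCC44. Of the 24 calls in HCC44, 5 held in all 19 alternative settings (ATP5MF, COX4I1, NDUFA5, NDUFS8 and UQCRQ), and of the 11 in H1975, 2 did (UQCRC2 and UQCRQ). These settings keep the adjusted p threshold of 0.05 and leave out the stricter thresholds. With a log2 change of at least 0.5 also required, neither of these H1975 genes was called. In HCC44, COX4I1, ATP5MF and NDUFS8 (log2 fold changes -0.40, -0.45 and -0.42) were then not called, while NDUFA5 and UQCRQ were. Calls also depended on single libraries. Without HCC44 DMSO replicate 1, HCC44 DMSO replicate 2 or HCC44 ACBI1 replicate 2, the HCC44 count of 24 called genes became 8, 8 and 11. Without H1975 DMSO replicate 1 or 2, the H1975 count of 11 became 4 and 5, and it became 3 without either ACBI1 replicate.

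**Figure D2:**
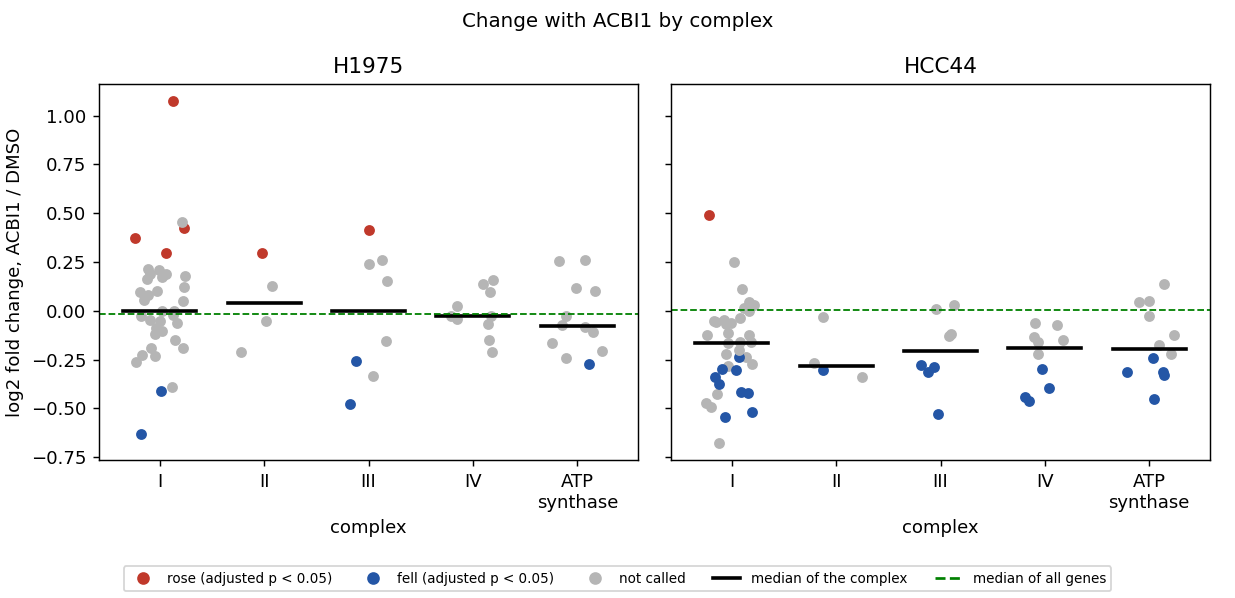
Points are the log2 fold changes of the 71 genes, ACBI1 over DMSO, by complex (x axis) in each line, with red for genes that rose and blue for genes that fell. Black bars mark the median of each complex, which in HCC44 lies between -0.29 and -0.17 in all 5 groups, and the dashed line marks that of all genes.

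Complex I was represented by 37 NDUF genes. One of them, NDUFA4, is named for complex I, and its product is now assigned to complex IV. In HCC44, 9 of the 37 fell and 1 rose, with 31 estimates below 0 and a median log2 fold change of -0.17. That is 24.3% lower and 2.7% higher, against 17.4% and 17.5% of all genes, and 27% called against 34.9%. In H1975, 4 rose and 2 fell, with a median of 0. That is 10.8% higher and 5.41% lower, against 14.6% and 16.7% of all genes, and 16.2% called against 31.3%.

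NDUFS8 is an iron-sulfur subunit of the arm that carries electrons from NADH. It was at 96.2 and 99.5 CPM in HCC44 DMSO and at 73.3 and 72.7 with ACBI1. In H1975 it was at 173 and 176 CPM with DMSO and at 164 and 185 with ACBI1. The HCC44 groups did not overlap, and the H1975 groups did. It fell by 25.4% in HCC44 (log2 fold change -0.42 ± 0.09 SE, adjusted p = 0.00336) and its log2 fold change in H1975 was 0.00 ± 0.09 (adjusted p = 1.0). NDUFS1, the largest subunit of that arm, was at 116 and 120 CPM in HCC44 DMSO and at 104 and 97.1 with ACBI1. It fell by 15.1% (adjusted p = 0.0462), a call that 14 of 19 alternative settings did not give.

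NDUFA5, an accessory subunit, was at 58.4 and 65.2 CPM in HCC44 DMSO and at 45.9 and 40.3 with ACBI1. It fell by 30.2% in HCC44 (log2 fold change -0.52 ± 0.10, adjusted p = 0.00268). Its H1975 value was -0.10 ± 0.10 (adjusted p = 0.480), and the test of the difference between the lines gave an adjusted p of 0.0683. NDUFB3 had the largest fall among the complex I genes called in HCC44, from 20.1 and 19.9 CPM to 16.3 and 11.1. The ACBI1 replicates differed, and without replicate 2 its log2 fold change moved from -0.54 to -0.30 and was not called. It was also not called without either HCC44 DMSO replicate, with upper-quartile factors, with library totals or with separate fits of the lines. The other complex I genes that fell in HCC44 were NDUFA2, NDUFA12, NDUFB4, NDUFB6 and NDUFB9, all accessory subunits.

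NDUFB10, an accessory subunit of the membrane arm, was the 1 gene that rose in HCC44. It was at 33.2 and 28.2 CPM with DMSO and at 40.9 and 45.2 with ACBI1, a rise of 40.4% (log2 fold change 0.49 ± 0.10, adjusted p = 0.00412). The groups did not overlap. Without HCC44 DMSO replicate 2 it was no longer called. In H1975 it was at 75.5 and 71.9 CPM with DMSO and at 84.3 and 84.0 with ACBI1 (adjusted p = 0.187).

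In H1975 the complex I genes that rose were NDUFA6, NDUFA7, NDUFC1 and NDUFS7. NDUFC1, an accessory subunit, was at 33.6 and 30.2 CPM with DMSO and at 42.0 and 43.5 with ACBI1, a rise of 34.0% (adjusted p = 0.0254). NDUFS7, an iron-sulfur subunit beside the coenzyme Q site, was at 78.8 and 81.9 CPM with DMSO and at 93.5 and 104 with ACBI1, a rise of 22.9% (adjusted p = 0.0281). In both genes all ACBI1 values were above all DMSO values. The NDUFC1 call was lost without H1975 DMSO replicate 2 or either ACBI1 replicate. The NDUFS7 call was lost without DMSO replicate 1, without ACBI1 replicate 2, or with GC content and length trends removed (log2 fold change 0.17 in place of 0.30). NDUFA6 was not called when any 1 H1975 library was left out. Annotated antisense genes cover 55.1% of the exon bases of NDUFS7, and the strand setting of the counts is not given in the sources used here.

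NDUFA7 was near the limit of what these libraries could measure, with 24 to 80 counts per library, and 75.9% of its exon bases overlap other genes on its strand, among them RPS28. Its level was 0.512 and 0.355 CPM in H1975 DMSO and 1.06 and 0.763 with ACBI1 (adjusted p = 0.0275), and the call was lost with DESeq2 and without H1975 DMSO replicate 2 or ACBI1 replicate 1. NDUFA11 and NDUFS5 fell in H1975. NDUFA11, at 12.4 and 9.35 CPM with DMSO and 7.10 and 6.91 with ACBI1, fell by 35.5% (adjusted p = 0.0199). It was no longer called without H1975 DMSO replicate 1 (log2 fold change -0.42 in place of -0.63) or without either ACBI1 replicate. The call was also lost with library totals. NDUFS5, an accessory subunit, was at 73.8 and 69.5 CPM with DMSO and at 54.1 and 53.9 with ACBI1, a fall of 24.7% (adjusted p = 0.0175). That call was lost when any 1 H1975 library was left out, and with upper-quartile factors or library totals. NDUFV1, which holds the NADH binding site, was at 450 and 452 CPM in H1975 DMSO and at 498 and 530 with ACBI1, and did not pass the test (adjusted p = 0.102). NDUFV2, beside it in the complex, had only 14 to 276 counts per library, and a copy took 9.39 to 68.9% of the summed counts of both, so its level is uncertain.

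Complex II consists of 4 subunits, SDHA to SDHD, all encoded in the nucleus. SDHB, its iron-sulfur subunit, was at 65.6 and 71.5 CPM in H1975 DMSO and at 84.7 and 83.9 with ACBI1. It rose by 23% (log2 fold change 0.30 ± 0.08, adjusted p = 0.0205), and in HCC44 it was at 124 and 120 CPM with DMSO and 121 and 117 with ACBI1 (adjusted p = 0.807). The H1975 groups did not overlap, but the rise was not called without H1975 DMSO replicate 1 or without either ACBI1 replicate. Nor was it called with GC content and length trends removed (log2 fold change 0.23 in place of 0.30). SDHC, a membrane anchor, was at 72.1 and 74.9 CPM in HCC44 DMSO and at 61.6 and 57.6 with ACBI1, a fall of 18.9% (adjusted p = 0.0170). The fall was not called without either HCC44 DMSO replicate or without ACBI1 replicate 2. Nor was it called with library totals or with GC content and length trends removed. In H1975 SDHC was at 105 and 110 CPM with DMSO and at 94.5 and 91.1 with ACBI1 (adjusted p = 0.0823). The flavoprotein SDHA had 630 to 1349 counts per library, while rows of its named copies held 49.5 to 73.2% of the summed counts, so its level is uncertain. It was not called in either line (adjusted p = 0.813 in H1975 and 0.0703 in HCC44).

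In complex III, 1 of 8 genes rose and 2 fell in H1975, and 4 fell in HCC44. That is 12.5% higher and 25% lower in H1975, against 14.6% and 16.7% of all genes. In HCC44 it is 50% lower, against 17.4%. UQCRC2, a core subunit on the matrix side, was at 124 and 118 CPM in H1975 DMSO and at 160 and 162 with ACBI1. In HCC44 it was at 148 and 156 CPM with DMSO and at 124 and 125 with ACBI1. ACBI1 libraries were above DMSO in one line and below it in the other, with no overlap in either. The gene lies on chromosome 16 at 21952660 to 21983660 (GRCh38, plus strand). UQCRC2 rose by 33.2% in H1975, a log2 fold change of 0.41 ± 0.08 (adjusted p = 0.00326), and fell by 18.1% in HCC44 (-0.29 ± 0.08, adjusted p = 0.0174). The HCC44 fall was not called with library totals or without HCC44 DMSO replicate 2.

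UQCRQ, a small subunit of the complex, fell in both lines. The gene lies on chromosome 5 at 132866560 to 132868031 (GRCh38, plus strand). It was at 91.2 and 86.2 CPM in H1975 DMSO and at 65.8 and 61.6 with ACBI1, and at 67.5 and 64.3 in HCC44 DMSO and 47.1 and 44.3 with ACBI1. All ACBI1 values lay below all DMSO values of the same line. In H1975 it fell by 28.2%, a log2 fold change of -0.48 ± 0.09 (adjusted p = 0.00251). In HCC44 the fall was 30.6%, or -0.53 ± 0.09 (adjusted p = 0.00108). The difference between the lines was -0.05 ± 0.13 (adjusted p = 0.843). Both calls held in all 19 alternative settings, which leave out the stricter thresholds. An annotated gene on the other strand, GDF9, overlaps 30% of its exon bases.

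**Figure D3:**
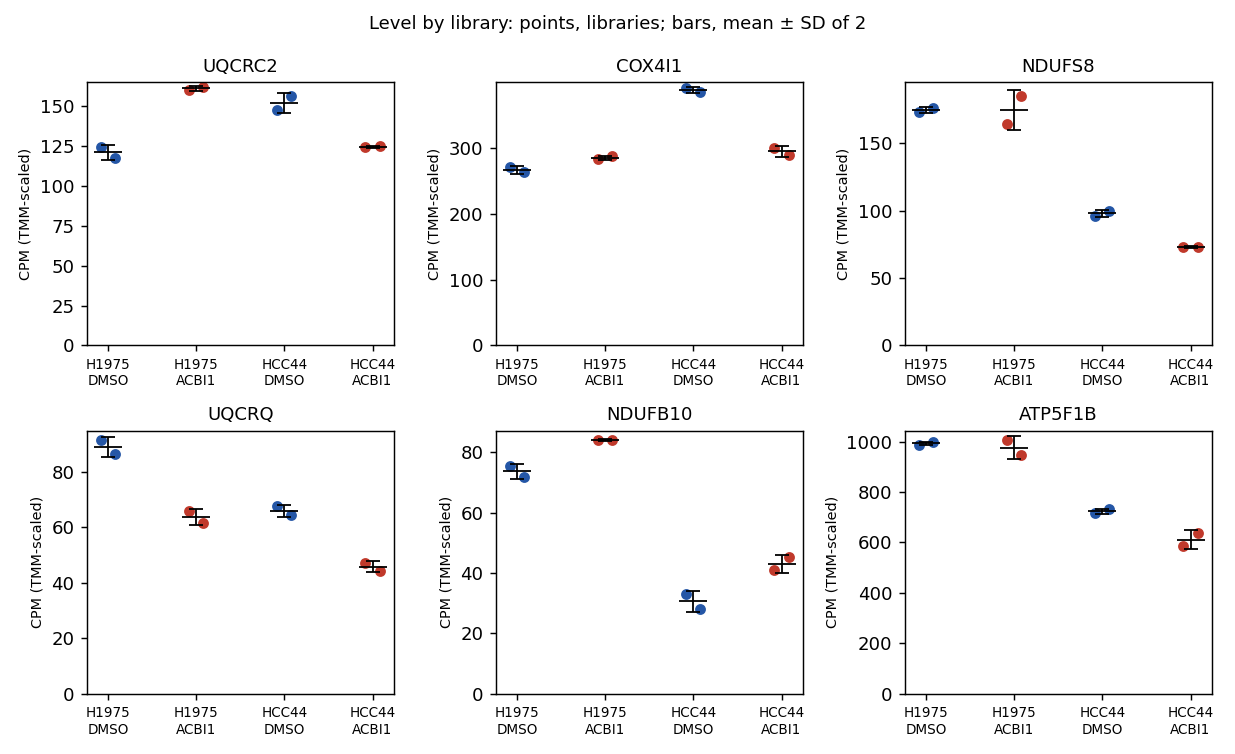
Points are the CPM of each library in the 4 groups for 6 genes (blue, DMSO; red, ACBI1), with bars for the mean ± SD of 2 libraries. UQCRC2 goes up in H1975 and down in HCC44, UQCRQ goes down in both, and NDUFB10 goes up in HCC44 (from a mean of 30.7 to 43.1 CPM).

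Of the other complex III genes, UQCRB fell in H1975, from 114 and 105 to 93.1 and 90.0 CPM (adjusted p = 0.0417, not called in 12 of 19 alternative settings). UQCRC1, the partner of UQCRC2, and the small subunit UQCR10 fell in HCC44. UQCRC1 was at 175 and 177 CPM with DMSO and at 139 and 152 with ACBI1, a fall of 17.5% (adjusted p = 0.0227), and in H1975 at 245 and 245 and then 217 and 224 CPM (adjusted p = 0.183). UQCR10 was at 57.7 and 59.3 CPM with DMSO and at 47.6 and 46.6 with ACBI1, a fall of 19.5% (adjusted p = 0.0139). Neither gene was called without HCC44 DMSO replicate 1 or DMSO replicate 2, or with library totals, nor was UQCRC1 without ACBI1 replicate 1. The Rieske iron-sulfur protein UQCRFS1 was not called in either line (adjusted p = 0.0704 in H1975 and 0.958 in HCC44).

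Of 10 complex IV genes, 4 fell in HCC44 (COX4I1, COX6B1, COX7A2 and COX7B) and all 10 estimates were below 0, with a median of -0.19. The 4 are 40% of these genes, where 17.4% of all genes fell. In H1975 edgeR called 0 of 10, where it called 31.3% of all genes. DESeq2 called 0 there, and 1 of the 10 had an unadjusted p under 0.05. The test of the difference between the lines called COX4I1 alone, and its adjusted p was 0.502 for COX6B1, 0.0835 for COX7A2 and 0.0954 for COX7B. COX4I1, the widely expressed form of subunit 4, was at 391.7 and 384 CPM in HCC44 DMSO and at 301 and 289 with ACBI1. In H1975 it was at 271 and 263 CPM with DMSO and at 283 and 287 with ACBI1. It fell by 24.0% in HCC44 (log2 fold change -0.40 ± 0.08, adjusted p = 0.00264), and its H1975 value was 0.10 ± 0.08 (adjusted p = 0.388). COX7B, a small membrane subunit, was at 115 and 115 CPM in HCC44 DMSO and at 91.6 and 75.04 with ACBI1, a fall of 27.5% (adjusted p = 0.0114) that was not called without either HCC44 DMSO replicate or without ACBI1 replicate 2. COX5A was not called in either line (adjusted p = 0.219 in H1975 and 0.174 in HCC44).

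In ATP synthase, 5 of 12 genes fell in HCC44 (ATP5F1B, ATP5F1E, ATP5ME, ATP5MF and ATP5PF) and 1 in H1975 (ATP5F1E). These are 41.7% and 8.33% of the 12, where 17.4% and 16.7% of all genes fell. ATP5MF, a membrane subunit, was at 39.3 and 40.7 CPM in HCC44 DMSO and at 30.6 and 27.8 with ACBI1, a fall of 27.0% (log2 fold change -0.45 ± 0.10, adjusted p = 0.00640). Its H1975 values were 63.9 and 56.3 CPM with DMSO and 52.4 and 49.2 with ACBI1 (adjusted p = 0.1). In both lines the ACBI1 libraries were the lower ones. ATP5MF shares 30.4% of its exon bases with PTCD1 and a readthrough gene. ATP5F1E, the epsilon subunit, was at 178 and 165 CPM in H1975 DMSO and 140 and 144 with ACBI1, and at 176 and 190 in HCC44 DMSO and 142 and 149 with ACBI1. The falls were 17.3% in H1975 (adjusted p = 0.0317) and 20.4% in HCC44 (adjusted p = 0.0119). The H1975 call was lost in 9 of 19 alternative settings, and the HCC44 call without HCC44 DMSO replicate 2. An annotated gene on the other strand, TUBB1, overlaps 23.2% of the exon bases of ATP5F1E.

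The catalytic beta subunit ATP5F1B fell by 15.5% in HCC44, from 715 and 731 to 585 and 637 CPM (adjusted p = 0.0445), a call lost in 13 of 19 alternative settings. In H1975 it was at 988 and 996 CPM with DMSO and at 1007 and 945 with ACBI1 (adjusted p = 0.864). The alpha subunit ATP5F1A, its partner in the catalytic head, was at 275 and 302 CPM in HCC44 DMSO and at 283 and 312 with ACBI1 (adjusted p = 0.740). In H1975 it was at 288 and 306 CPM and then 321 and 325 (adjusted p = 0.349).

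Whether the response to ACBI1 was unlike in the lines was tested as the HCC44 log2 fold change minus that of H1975. This difference was called in 8 of 71 genes (11.3%), all 8 lower in HCC44, where 18.6% of all genes were called (8.4% lower, 10.2% higher). edgeR called 0 of the 71 higher in HCC44, DESeq2 called 0, and 0 had an unadjusted p under 0.05 in that direction, against 23 in the other. The median difference was -0.22, against 0.04 for all genes, and 59 of 71 were below 0. The comparison uses the same libraries as those within each line.

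The 8 genes were UQCRC2, UQCR10, COX4I1, NDUFS7, NDUFS8, NDUFA7, NDUFA8 and NDUFB9. UQCRC2 differed by -0.70 ± 0.11 on the log2 scale (adjusted p = 0.00245), and the call held in all 18 alternative settings run for it. COX4I1 differed by -0.49 ± 0.11 (adjusted p = 0.0117), and UQCR10 by -0.47 ± 0.12 (adjusted p = 0.0194). NDUFS7 differed by -0.50 ± 0.13 (adjusted p = 0.0211), NDUFS8 by -0.42 ± 0.12 (adjusted p = 0.0350), NDUFB9 by -0.55 ± 0.16 (adjusted p = 0.0347) and NDUFA8 by -0.41 ± 0.13 (adjusted p = 0.0451). Of these, UQCRC2 alone was called in both lines. NDUFA8 was called in neither line, at 51.2 and 50.02 CPM in H1975 DMSO and 58.0 and 56.3 with ACBI1, against 52.3 and 53.1 and then 46.4 and 43.1 in HCC44. NDUFA7, at 1.06 CPM or less in all 8 libraries, differed by -1.75 ± 0.45 (adjusted p = 0.0217).

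**Figure D4:**
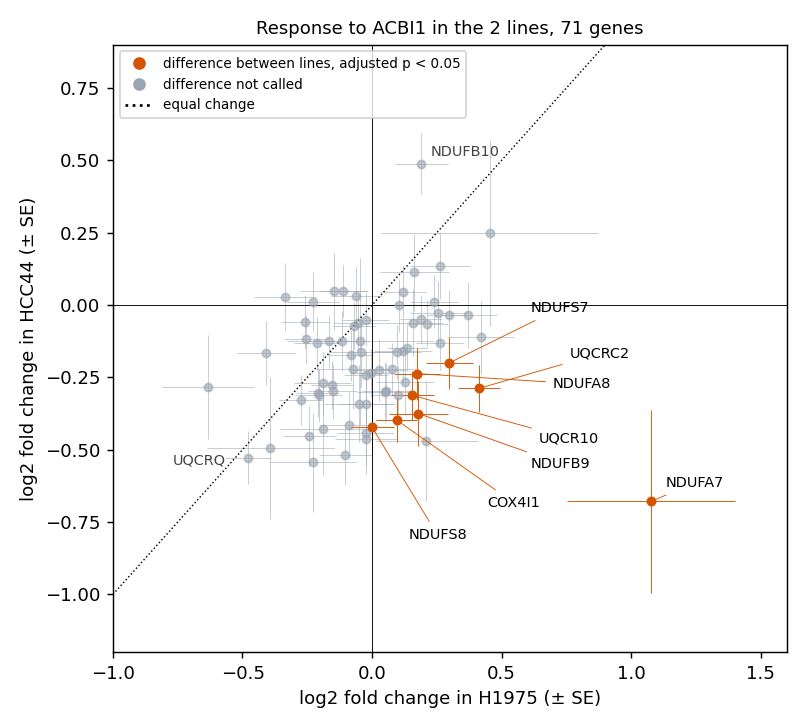
Each point is 1 of the 71 genes, with its log2 fold change ± SE in H1975 (x axis) and in HCC44 (y axis). The 8 genes whose difference was called (orange) all lie below the dotted line of equal change, with UQCRC2 at 0.41 and -0.29.

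The other 7 calls were each lost when at least 1 library was left out, and the count of 8 depended on single libraries. It became 4 without H1975 DMSO replicate 1, 4 without H1975 DMSO replicate 2, 4 without H1975 ACBI1 replicate 1 and 2 without H1975 ACBI1 replicate 2. It became 1 without HCC44 DMSO replicate 1, 2 without HCC44 DMSO replicate 2, 16 without HCC44 ACBI1 replicate 1 and 5 without HCC44 ACBI1 replicate 2.

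The counts also depended on how the libraries were scaled. With TMM factors, the median of all genes was -0.01 in H1975 and 0.01 in HCC44. With library totals it was 0.18 and 0.09, so that scaling shifted all genes upward by more in H1975. The 71 genes then counted 27 higher and 1 lower in H1975 and 1 higher and 8 lower in HCC44, against 25.5% of all genes higher and 9.76% lower in H1975, and 21.3% higher and 13.9% lower in HCC44. The share of all genes that fell in HCC44 under that scaling was thus above the 8 of 71. Relative to all genes, the median of the 71 genes was -0.01 in H1975 and -0.21 in HCC44 with TMM factors, and 0 and -0.20 with library totals. With upper-quartile factors the H1975 split was 12 higher and 2 lower, and the HCC44 split 1 higher and 14 lower (all genes 17.6% and 13.7%, and 19.7% and 15.3%). Removing GC content and length trends gave 5 higher and 7 lower in H1975, and 1 higher and 32 lower in HCC44 (all genes 16.1% and 16.6%, and 17.5% and 19.8%).

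**Figure D5:**
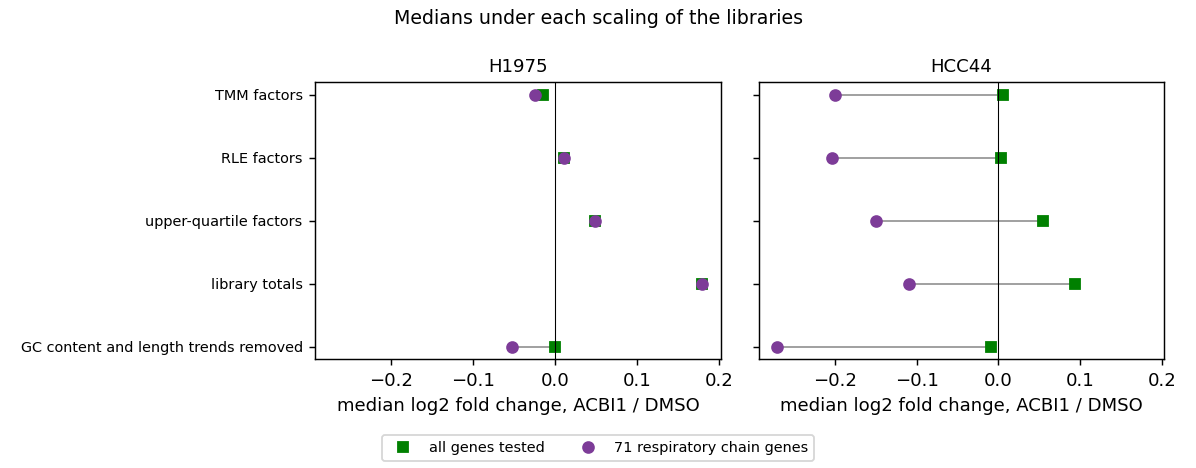
Median log2 fold changes of all genes tested (green squares) and of the 71 genes (purple circles) in each line, under 5 scalings of the libraries. In HCC44 the circle lies 0.20 to 0.26 left of the square in each, and in H1975 the 2 marks lie within 0.053.

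Without ACBI1 the lines already differed in these genes. In H1975 DMSO against HCC44 DMSO, 27 of 71 were higher in H1975 and 22 lower (69% called, against 67.9% of all genes, of which 36.4% were higher and 31.6% lower). NDUFV1 was at 450 and 452 CPM in H1975 and at 143 and 142 in HCC44, a level 3.16-fold higher in H1975 (adjusted p = 2.63e-08). NDUFA3 was 2.64-fold and NDUFB10 2.40-fold higher in H1975, both accessory subunits of complex I. UQCRH, the hinge protein of complex III, was at 80.2 and 73.0 CPM in H1975 and at 204 and 199 in HCC44, 2.63-fold higher in HCC44 (adjusted p = 2.53e-07). NDUFS6, an accessory subunit of complex I, was 2.25-fold higher in HCC44. These are differences between 2 cell lines, and NDUFA3, NDUFB10, UQCRH and NDUFS6 were singled out after their values were seen.

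Of 9 subunits that the choice by symbol left out, 3 rose and 3 fell in H1975, and 3 fell in HCC44. These are 66.7% and 33.3% of 9 genes, where 31.3% and 34.9% of all genes were called. The HCC44 calls were all falls, where 17.4% of all genes fell. CYC1, the cytochrome c1 of complex III, was at 111 and 111 CPM in H1975 DMSO and at 153 and 167 with ACBI1 (log2 fold change 0.52, adjusted p = 0.00135), and its HCC44 value was -0.19 (adjusted p = 0.113). It was named after its values were seen. ATP5MC1, a ring subunit of ATP synthase, rose by 0.53 (log2, adjusted p = 0.00430) in H1975 and was at -0.16 (adjusted p = 0.282) in HCC44. COX7A2L, which joins complexes III and IV in supercomplexes, fell in both lines, from 79.7 and 78.9 to 65.2 and 67.8 CPM in H1975 (adjusted p = 0.0385) and from 121 and 130 to 75.5 and 75.99 in HCC44 (adjusted p = 9.33e-05). The ATP synthase inhibitor ATP5IF1 also fell in both, by 0.31 (adjusted p = 0.0175) and 0.56 (adjusted p = 0.000530) on the log2 scale. The H1975 falls of COX7A2L and ATP5IF1 were each lost when any 1 of the 4 H1975 libraries was left out. The H1975 count for the 9 subunits became 3 higher and 0 lower without DMSO replicate 1, and 2 and 0 without ACBI1 replicate 2. In HCC44, 6 fell without ACBI1 replicate 1.

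Of the 13 subunits encoded in mitochondrial DNA, 5 fell in H1975 and all 13 estimates were below 0 (median -0.50). The 5 are 38.5%, where 16.7% of all genes fell and 31.3% were called. In HCC44 edgeR called 0, DESeq2 called 0 and 0 had an unadjusted p under 0.05 (median 0.11). MT-CO3, a core subunit of complex IV, was at 8007 and 5578 CPM in H1975 DMSO and at 4088 and 3503 with ACBI1 (log2 fold change -0.84, adjusted p = 0.00212). The H1975 DMSO libraries stood apart from each other here: the 13 genes took 7.46% of gene counts in replicate 1 and 4.84% in replicate 2, against 5.73% and 4.49% with ACBI1. Without H1975 DMSO replicate 1 or ACBI1 replicate 2, 1 of the 13 was called in H1975 (medians -0.16 and -0.30), and without DMSO replicate 2, 12 were (median -0.72). MT-CO3 remained called in each, at -0.56, -0.70 and -1.03. With library totals 1 was called. The difference between the lines was called in 3 of the 13 (23.1%), all higher in HCC44, against 18.6% of all genes called (10.2% higher). That count became 1 without H1975 DMSO replicate 1, without H1975 ACBI1 replicate 2 or when any 1 HCC44 library was left out, 9 without H1975 DMSO replicate 2 and 5 without H1975 ACBI1 replicate 1.

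Assembly factors build the complexes and are not part of them. Of 24 for complex IV, 6 rose in H1975, while 3 rose and 3 fell in HCC44. In H1975 that is 25% higher and 0 lower, against 14.6% and 16.7% of all genes. In HCC44 it is 12.5% each way, against 17.5% higher and 17.4% lower. In all, 25% were called in each line, where 31.3% and 34.9% of all genes were. COX20, a chaperone of a core subunit of complex IV, rose in both lines, by 0.55 in H1975 (adjusted p = 0.00204) and 0.97 in HCC44 (adjusted p = 5.28e-05) on the log2 scale. COX18, which inserts that subunit into the membrane, rose by 0.55 in H1975 (adjusted p = 0.00868). Of 14 for complex I, 1 rose and 1 fell in H1975, and 2 rose and 3 fell in HCC44. That is 14.3% and 35.7% called, below and near the 31.3% and 34.9% of all genes. ACAD9 was at 48.9 and 40.7 CPM in H1975 DMSO and at 27.6 and 22.6 with ACBI1 (adjusted p = 0.000821), and in HCC44 at 41.8 and 39.7 and then 44.6 and 48.3 (adjusted p = 0.282). ECSIT rose in both lines, by 0.65 (adjusted p = 0.00190) and 0.56 (adjusted p = 0.00333). The complex IV count in H1975 became 2 with DMSO replicate 1 left out and 3 with ACBI1 replicate 2 left out, and in HCC44 it became 1 higher and 1 lower without either DMSO replicate. COX18 was not called without H1975 DMSO replicate 1 or ACBI1 replicate 2.

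SDHAF4, which helps insert the flavin-bearing subunit into complex II, rose by 0.76 in H1975 (adjusted p = 0.00405), 1 of 4 assembly factors of that complex. UQCC2 rose by 0.54 (adjusted p = 0.00252), 1 of 6 for complex III. In HCC44 edgeR and DESeq2 called 0 of these 4 and 0 of these 6, with 2 and 0 at an unadjusted p under 0.05. The H1975 calls, all rises, were 25% of the 4 and 16.7% of the 6. Of all genes, 14.6% rose in H1975 and 31.3% were called. In HCC44, 34.9% of all genes were called. Of 5 genes for assembly or inhibition of ATP synthase, ATP5IF1 alone was called. That is 20% lower in each line, where 16.7% and 17.4% of all genes fell. Of 8 tissue-restricted subunit forms, 4 had enough counts to be tested, of which 2 rose in H1975 and 2 fell in HCC44. That is 50% higher in H1975 and 50% lower in HCC44, against 14.6% and 17.4% of all genes (31.3% and 34.9% called). One of these, COX6B2, the testis form of COX6B1, fell in HCC44 by 1.48 on the log2 scale (adjusted p = 0.00458).

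Of 17 regulators of mitochondrial biogenesis tested, 3 rose in H1975, and 2 rose and 4 fell in HCC44. In H1975 that is 17.6% higher and 0 lower, against 14.6% and 16.7% of all genes. In HCC44 it is 11.8% higher and 23.5% lower, against 17.5% and 17.4%. In all, 17.6% and 35.3% were called, where 31.3% and 34.9% of all genes were. NRF1, a factor with sites in many of these promoters, was at 26.0 and 23.3 CPM in HCC44 DMSO and at 20.5 and 16.9 with ACBI1 (log2 fold change -0.40, adjusted p = 0.0392), and in H1975 its value was -0.20 (adjusted p = 0.289). The HCC44 call was lost in 10 of the alternatives, a count that here includes the stricter thresholds. Among the 10 were leaving out either HCC44 DMSO replicate or ACBI1 replicate 2. GABPA, the DNA-binding part of GABP, and TFAM, which packs mitochondrial DNA, were not called in either line. GABPB2, a partner of GABPA, fell in HCC44 by 0.76 (log2, adjusted p = 0.000521). TFB1M, which modifies mitochondrial ribosomal RNA, rose in H1975 by 0.57 (adjusted p = 0.0163), a call lost without H1975 DMSO replicate 1 or ACBI1 replicate 2. The coactivator PPARGC1A had at most 4 counts in a library and was not tested.

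Of 18 genes for electron carriers and coenzyme Q, 4 rose in H1975, and 5 rose and 3 fell in HCC44 (22.2% and 44.4% called, against 31.3% and 34.9% of all genes). The H1975 calls were all rises, where 14.6% of all genes rose. In HCC44, 27.8% rose and 16.7% fell, against 17.5% and 17.4% of all genes. Cytochrome c, CYCS, rose in H1975 from 342 and 348 to 406 and 432 CPM (adjusted p = 0.0411), and its HCC44 value was -0.12 (log2, adjusted p = 0.366). DHODH, which feeds electrons from pyrimidine synthesis, rose in H1975 by 0.77 (adjusted p = 0.00103), and ETFDH, which feeds them from fatty acid oxidation, rose in HCC44 by 0.72 (adjusted p = 0.000549). Of 17 genes of the TCA cycle and pyruvate dehydrogenase, 2 rose and 2 fell in H1975, and 2 rose and 5 fell in HCC44 (23.5% and 41.2% called). The malate dehydrogenase MDH2 rose in both lines (0.59 and 0.35) and IDH3A, a subunit of isocitrate dehydrogenase, fell in both (-0.37 and -0.52). The H1975 calls of CYCS and IDH3A were lost when any 1 of the 4 H1975 libraries was left out, and the HCC44 call of MDH2 without HCC44 DMSO replicate 1.

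Of 76 mitochondrial ribosomal protein genes tested, 16 rose and 2 fell in H1975 (median 0.11), and 3 rose and 12 fell in HCC44 (median -0.08). In H1975 that is 21.1% higher and 2.63% lower, against 14.6% and 16.7% of all genes. In HCC44 it is 3.95% higher and 15.8% lower, against 17.5% and 17.4%. In all, 23.7% and 19.7% were called, where 31.3% and 34.9% of all genes were. The median difference between the lines was -0.23, where it was -0.22 for the 71 genes. It was called in 9 of the 76 (11.8%), all 9 lower in HCC44, against 18.6% of all genes called (8.4% lower). With library totals the medians were 0.31 in H1975 and 0.01 in HCC44, with 40 higher and 1 lower in H1975 and 7 higher and 5 lower in HCC44. Of all genes, 25.5% were then higher and 9.76% lower in H1975, and 21.3% higher and 13.9% lower in HCC44. In HCC44 the count became 0 higher and 4 lower without either DMSO replicate of that line. MRPL24 rose in H1975 from 107 and 116 to 193 and 214 CPM (adjusted p = 0.000112), and was at 77.8 and 70.8 and then 80.8 and 77.3 CPM in HCC44 (adjusted p = 0.507).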

How the data were processed

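RNA was sequenced in 8 libraries. Each library has 1 table of read counts by gene name, as the authors left them in the deposited files. TopHat2 2.1.1, HTSeq 0.11.0 and hg38 are named per the submitters' processing notes. The strand setting and the gene annotation are not given in the sources used here. The 5 summary rows, 14.3 to 15.8% of each table, were left out.

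Fold changes came from edgeR 4.0.16 in R 4.3.3. filterByExpr kept 21307 genes, TMM factors scaled the libraries, and CPM values use the scaled sizes. One model with the 4 group means covered the 8 libraries and left 4 residual degrees of freedom. P-values of the robust two-sided quasi-likelihood F-test were adjusted by Benjamini-Hochberg over all genes, with 0.05 as the threshold for a call. Standard errors were taken as the size of the log2 fold change over the root of its F value. The procedure was tested on simulated counts. No 2 replicates looked like 1 library deposited again: their chi-square divided by its degrees of freedom was 22.7 to 45.9.

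Named genes were 10 fixed subunits, the largest rise and fall per complex and line among called genes with at least 5 CPM and groups that do not overlap, the largest called differences between the lines, and fixed or leading genes of the other lists. Further called genes were named after their values were seen. The members and lists were chosen with earlier results of these data known. Gene overlaps, GC content and length came from GENCODE release 29, which matched 93.0% of the names, and promoter windows from RefSeq. Alternatives were DESeq2 1.42.0, other scalings and filters, separate fits of the lines, a replicate block, dispersion without robust estimation, stricter thresholds, GC content and length correction, counts of copies added, and each library left out. Figures were drawn with matplotlib 3.10.9.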

Additional observations from a re-analysis of the deposited data

Results flagged for a closer look

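Each value here is a log2 fold change with ACBI1 in HCC44 minus that in H1975. The genes are listed because edgeR's test of that difference gave an adjusted p under 0.05 over all genes. Among the 71 subunits these were UQCRC2 (-0.70), UQCR10 (-0.47), COX4I1 (-0.49), NDUFS7 (-0.50), NDUFS8 (-0.42), NDUFA7 (-1.75), NDUFA8 (-0.41) and NDUFB9 (-0.55).

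Among the other genes the rule names, the difference was -0.47 for COX7A2L, -0.69 for ATP5MC1 and -1.08 for NDUFA4L2, a form of NDUFA4 at no more than 4.61 CPM. It was 1.02 for ACAD9, -1.02 for SDHAF4 and -0.53 for UQCC2, which are assembly factors. ETFDH (0.64) and DHODH (-0.60) pass electrons to coenzyme Q, and GABPB2 (-0.56) is a regulator. The difference was 1.05 for MT-CO3 and -0.78 for MRPL24. For COX7A2L, NDUFA4L2, UQCC2, ETFDH, DHODH and GABPB2 the call was lost in some of the fits with a library left out. For ATP5MC1, ACAD9, SDHAF4, MT-CO3 and MRPL24 it was lost in none of them.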

How the results depend on the processing

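No called value of a gene named by the rule changed sign under the alternatives. The H1975 count of 11 called genes became 28 with library totals, 23 with the replicate block, 2 at an adjusted p under 0.01, 2 with a log2 change of at least 0.5, and 3 to 15 with a library left out. The HCC44 count of 24 became 15 with upper-quartile factors, 9 with library totals, 7 at an adjusted p under 0.01, 3 with a log2 change of at least 0.5, and 8 to 25 with a library left out. The difference count of 8 became 22 with library totals, 23 with the replicate block, 1 at an adjusted p under 0.01, 3 with a log2 change of at least 0.5, and 1 to 16 with a library left out. The count of 49 between the DMSO groups became 32 with a log2 change of at least 0.5. The other alternatives kept each count within 1.5 times. DESeq2 gave 9, 22, 12 and 46. Of all genes, DESeq2 called 14% higher and 14.2% lower in H1975, 16.3% and 16.6% in HCC44, and 10.3% and 9.73% for the difference. The replicate block called 20.1% and 22.7% in H1975 and 16.3% and 13.5% for the difference. Library totals called 8.09% and 11.9% for the difference. The shares of all genes at the stricter thresholds and with a library left out are not given here.

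The H1975 median of -0.02 became 0.049 with upper-quartile factors, 0.18 with library totals and -0.041 to 0.051 with a library left out. The HCC44 median of -0.20 became -0.11 with library totals and -0.26 to -0.15 with a library left out. The median difference of -0.22 became -0.33 with library totals and -0.27 to -0.17 with a library left out. The median between the DMSO groups, 0.09, became 0.16 with upper-quartile factors, 0.20 with library totals, -0.14 without GC content and length trends, and 0.06 to 0.11 with a library left out. The cause of these shifts was not tested.

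The labels name no batch and do not say whether same-numbered libraries belong together, so the main fit did not pair them. Same-numbered libraries deviated together, with a correlation across all genes of 0.374 in H1975 and 0.109 in HCC44, and across the 71 genes of 0.635 and 0.236. The replicate block, which spends degrees of freedom on the pairing, gave 33 called genes in HCC44. Of the 71 genes 1 rose and 32 fell there, against 22.3% and 22.5% of all genes. Where a library was left out, the lone sample of its group is assumed to vary like the others. A check added after seeing the data took the 46 genes with under 10% of exon bases overlapping another gene. In HCC44, 16 fell and 1 rose (34.8% and 2.17%, against 17.4% and 17.5% of all genes). In H1975, 4 rose and 3 fell (8.7% and 6.52%, against 14.6% and 16.7%). In all, 37% and 15.2% were called, where 34.9% and 31.3% of all genes were.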
